A study of Mus musculus with 20 samples.

Results

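The miR-26 and miR-101 families are 2 groups of microRNAs (miRNAs) that share a known target, the mRNA of Ezh2. Ezh2 is the catalytic subunit of Polycomb repressive complex 2, which methylates histone H3 at lysine 27 and keeps genes of differentiation silent in progenitor cells, epidermal ones included. A miRNA guides an Argonaute protein to an mRNA mainly through its seed, the stretch from base 2 to base 8 counted from the 5′ end, and lowers that mRNA's translation and stability. Both families have been described as lowered in several human cancers. The members were all mature miRNAs in the deposited table whose name begins with miR-26a, miR-26b, miR-101a, miR-101b or miR-101c, and there were 10 of them among 1137 mature miRNAs. Ezh2 itself was not analysed here, because only small RNA was measured.

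All libraries were made from skin biopsies of the inbred strain FVB/N, in mice of a chemical model of skin cancer. There were 4 groups of 5 libraries. They were cutaneous squamous cell carcinomas (cSCC), papillomas (benign tumours) and hyperplastic skin (thickened, without a tumour), all from skin treated with DMBA, a mutagen, and PMA, a phorbol ester that promotes tumours, and healthy skin treated with acetone, the solvent. No genotype, age or sex is given. Since every lesion also had DMBA and PMA, lesion and treatment cannot be told apart wherever healthy skin is compared. Whether the 5 biopsies of a group are from 5 mice is not stated. The p-values therefore measure only the spread between these samples, which may be technical. In a biopsy, fewer cells of a type that carries a miRNA and less of that miRNA per cell cannot be told apart.

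The sequences show which members can and cannot be counted apart. They are the RefSeq mature sequences on the mouse build GRCm38.p6, written 5′ to 3′ with the seed in capitals, and all 10 members had one. The prefix mmu marks a mouse miRNA and is left off elsewhere. The pair of miR-26 guides come first.
mmu-miR-26a-5p: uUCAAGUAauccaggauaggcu
mmu-miR-26b-5p: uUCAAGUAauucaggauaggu
These share the seed UCAAGUA and, over 21 aligned bases, differ at C11U and C21U (miR-26a-5p base, position from its 5′ end, miR-26b-5p base).

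The 3 listed guides of the miR-101 family and the other arm of the miR-101a hairpin follow.
mmu-miR-101a-3p: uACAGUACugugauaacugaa
mmu-miR-101b-3p: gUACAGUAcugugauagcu
mmu-miR-101c: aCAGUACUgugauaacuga
mmu-miR-101a-5p: uCAGUUAUcacagugcugaugc
The 3 guides hold the same core with 3 different starts, so the capitals shift along it and no pair of them shares a seed. Aligned without gaps over 18 bases, miR-101b-3p differs from miR-101a-3p at A16G, and it begins 1 base earlier. The whole of miR-101c lies inside miR-101a-3p, from its position 2 to its position 20. A read of miR-101c therefore cannot be told from a shortened read of miR-101a-3p, and the treatment of reads with several matches is not given in the sources used here.

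By the GENCODE M21 annotation of GRCm38, the miR-26 hairpins sit inside genes of small phosphatases that act on RNA polymerase II. The hairpin of miR-26a-1 (chr9:119031796-119031885, + strand) lies in an intron of Ctdspl, and that of miR-26b (chr1:74394310-74394394, + strand) in an intron of Ctdsp1. The hairpin of miR-26a-2 (chr10:126995530-126995613, + strand) lies within Ctdsp2 and overlaps an annotated exon of it. Both miR-26a hairpins give the same miR-26a-5p, so its count cannot be split between them. The miR-101b hairpin (chr19:29135279-29135375, + strand) lies in an intron of Rcl1, and the miR-101a hairpin (chr4:101346945-101347027, - strand) overlaps an exon of the long non-coding RNA gene E130102H24Rik. The miR-101c entry (chr9:3038680-3038698, - strand) overlaps no other annotated gene.

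Depth differed between groups. Mature miRNA counts per library ran from 1614803 to 2903657 in cSCC, 1060615 to 2370313 in papilloma, 3142228 to 6904298 in hyperplastic skin and 2884177 to 4921719 in healthy skin, and no batch is named. Levels are CPM, read counts relative to a library total scaled by TMM factors over the 850 miRNAs that passed a low-count filter. The scaling depends on which miRNAs enter it, and the same test was also run on abundant miRNAs alone, the 293 whose mean over all libraries reached 50 CPM. Against the first scaling, that one lies higher by a median of 0.71 on the log2 scale for cSCC against healthy skin, 0.64 for papilloma, 0.08 for hyperplastic skin and 0.07 for cSCC against papilloma. Both values are given for the 5 members that enter both fits. The keratinocyte miRNAs, 7 of 7 listed, were detected in every library, with a summed level of 76188 to 144348 CPM in cSCC, 107880.0 to 210770.0 CPM in papilloma, 175456 to 222586 CPM in hyperplastic skin and 156054 to 252911 CPM in healthy skin.

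Over the 4 groups the members fell into 3 levels of abundance. miR-26a-5p led, ranking 35th of 1137 mature miRNAs by mean CPM in cSCC, 30th in papilloma and 20th in both hyperplastic and healthy skin. miR-101a-3p, miR-101b-3p and miR-26b-5p followed, with group means of 335 to 3008 CPM. The other 6 averaged at most 216 CPM in each group, and miR-101b-5p, with 0 to 17 counts in a library, did not pass the filter. Counts of different miRNAs also differ through ligation and capture, so these levels order the miRNAs only roughly. miR-26a-5p made up 85.4% to 92.9% of all miR-26 reads in each library, and miR-101a-3p with miR-101b-3p made up 94.3% to 98.1% of all miR-101 reads.

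**Figure D1:**
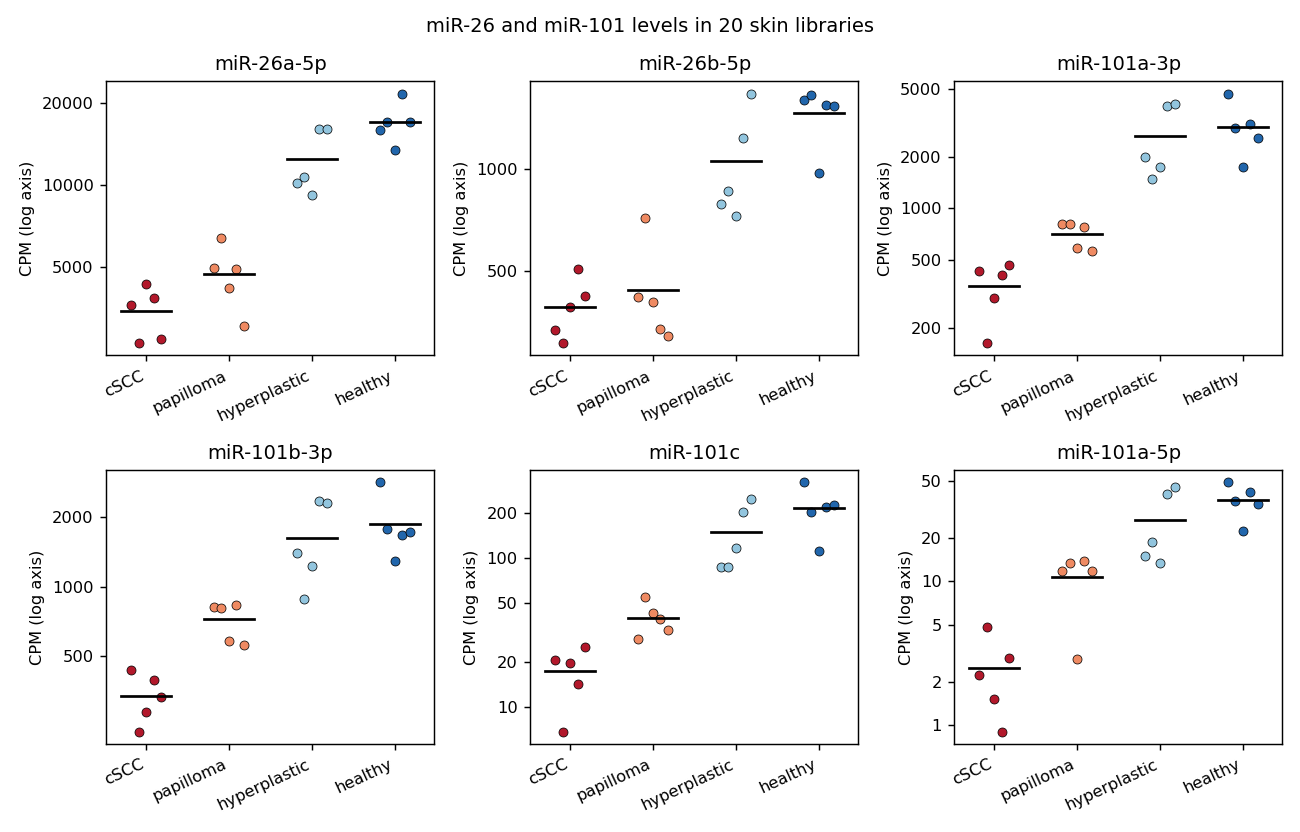
Level in CPM (log axis) of 6 members in each of 20 libraries, grouped as cSCC, papilloma, hyperplastic and healthy skin, with 1 point per library and a bar at the group mean. The cSCC and papilloma points lie below all healthy points in each panel, and hyperplastic points overlap the healthy ones.

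Tested across the 4 groups, 7 of the 9 tested members differed (F test in edgeR, p adjusted by Benjamini-Hochberg over all tested, threshold 0.05), where 56% of all 850 tested miRNAs did. These were miR-26a-5p (adjusted p = 5.15e-08), miR-101c (5.59e-08), miR-101a-3p (6.13e-08), miR-101b-3p (4.44e-07), miR-101a-5p (1.36e-06), miR-26b-5p (2.87e-06) and miR-26b-3p (0.000409). The 2 that did not pass were the low-count arms miR-26a-2-3p and miR-26a-1-3p (edgeR, adjusted p = 0.198 and 0.56). miR-26a-2-3p had 2 to 16 counts in cSCC, 5 to 18 in papilloma, 14 to 28 in hyperplastic skin and 14 to 31 in healthy skin, and miR-26a-1-3p had 0 to 10, 2 to 13, 6 to 24 and 2 to 13 in these groups, so that little could be detected at this depth.

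In cSCC against healthy skin, 7 members were lower, 0 were higher, 2 did not pass and 1 was not tested. Of all tested miRNAs, 21.3% were called lower there. Of the 2 that did not pass, miR-26a-2-3p had a log2 fold change of -1.03 ± 0.44 SE (edgeR, adjusted p = 0.0543). DESeq2 called 8 members lower, and its share over all miRNAs is not given here. Among the abundant miRNAs, 5 of 5 members were lower, where 25.9% of all were. The background of higher calls was 26.2%, and 36.5% among abundant miRNAs. The members' median log2 fold change was -2.31 over the 9 tested, beside 0.35 over all 850. Both families were thus lower in the carcinomas under both scalings, and the libraries of the 2 groups were apart for all 7 called members, as they were, in the lower direction, for 16.7% of all tested miRNAs.

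miR-26a-5p, the main miR-26 guide, stood at 3630, 2625, 4321, 3828 and 2725 CPM in cSCC 1, 2, 3, 4 and 6, against 15918, 16965, 13445, 21582 and 17009.7 CPM in healthy 2, 3, 4, 5 and 7. The highest carcinoma lay well below the lowest healthy skin. A share of mature miRNA reads is a scaling to each library's mature total, and it falls where other abundant miRNAs rise. By this share miR-26a-5p made up 0.349% ± 0.0356 in cSCC and 1.36% ± 0.0674 in healthy skin (SD, n = 5 each). Its log2 fold change was -2.31 ± 0.25 SE (edgeR, adjusted p = 7.26e-08), and -1.60 ± 0.16 among abundant miRNAs (adjusted p = 1.43e-07).

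miR-26b-5p, which carries the same seed, stood at 335.7, 306.7, 391.1, 506.9 and 420.9 CPM in cSCC 1, 2, 3, 4 and 6, against 1596, 1651, 974.2, 1539.5 and 1533 CPM in healthy 2, 3, 4, 5 and 7. Healthy 4 was the lowest of the healthy libraries for both miR-26 guides and still above every carcinoma. The log2 fold change was -1.90 ± 0.28 (edgeR, adjusted p = 6.15e-06), and -1.18 ± 0.21 among abundant miRNAs (adjusted p = 8.45e-05). Its other arm, miR-26b-3p, averaged 28.6 ± 8.5 CPM in cSCC and 77.3 ± 23 CPM in healthy skin (SD, n = 5 each; log2 fold change -1.44 ± 0.33, edgeR adjusted p = 0.000864).

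miR-101a-3p, the guide arm of the miR-101a hairpin, stood at 428.5, 162.8, 298.2, 408.0 and 462.9 CPM in cSCC 1, 2, 3, 4 and 6, against 4693, 2937, 1749, 3095 and 2567 CPM in healthy 2, 3, 4, 5 and 7. All 5 carcinomas lay below all 5 healthy skins, and cSCC 2 was the lowest of all libraries. The log2 fold change was -3.09 ± 0.34 (edgeR, adjusted p = 1.09e-07), and -2.39 ± 0.29 among abundant miRNAs (adjusted p = 9.01e-07).

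miR-101b-3p, its near-copy from the Rcl1 intron, stood at 435.2, 233.9, 284.3, 391.0 and 332.4 CPM in cSCC 1, 2, 3, 4 and 6, against 2842, 1784, 1295, 1671 and 1732 CPM in healthy 2, 3, 4, 5 and 7. The groups were again apart, with the same library lowest in each group as for miR-101a-3p. The log2 fold change was -2.47 ± 0.29 (edgeR, adjusted p = 2.38e-07), and -1.77 ± 0.23 among abundant miRNAs (adjusted p = 2.25e-06).

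The 2 remaining called entries are the other arm of the miR-101a hairpin and miR-101c, whose reads cannot be told from shortened miR-101a-3p. miR-101a-5p, the passenger arm, had 2 to 12 counts in the carcinomas and 64 to 191 in healthy skin (log2 fold change -3.87 ± 0.47, edgeR adjusted p = 3.88e-07). miR-101c had 17 to 55 counts in the carcinomas and 318 to 1247 in healthy skin (log2 fold change -3.64 ± 0.38, edgeR adjusted p = 6.31e-08, and -2.92 ± 0.35 among abundant miRNAs). Its count was 3.51% to 6.58% of that of miR-101a-3p in the carcinomas and 6.38% to 8.83% in healthy skin.

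**Figure D2:**
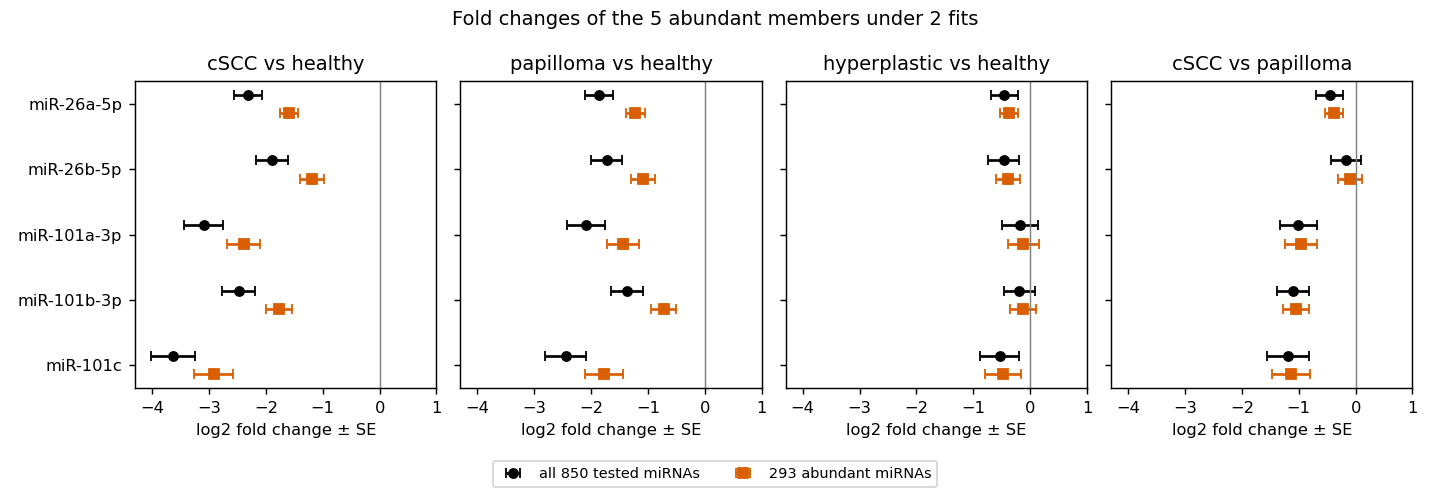
Log2 fold change with its SE (edgeR) of the 5 members that enter both fits, in 4 comparisons, from the fit of all 850 tested miRNAs (circles) and from that of the 293 abundant ones (squares). The tumour comparisons with healthy skin lie below 0 under both fits, with the squares closer to 0.

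In papilloma against healthy skin, the same 7 members were called lower, 0 were higher, 2 did not pass and 1 was not tested, where 20.7% of all tested miRNAs were called lower. Among abundant miRNAs 5 of 5 were lower, where 20.5% of all were. The background of higher calls was 24%, and 29% among abundant miRNAs. The libraries were apart for all 7, as for 14.7% of all tested miRNAs in that direction. The members' median log2 fold change was -1.73, beside 0.40 over all 850 tested. This comparison shares its healthy libraries with the one for cSCC, so the 2 are not independent.

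miR-26a-5p stood at 4948, 6396, 4160, 4895 and 3025 CPM in papilloma 1, 3, 4, 5 and 6, each below all healthy libraries. Its share of mature miRNA reads was 0.581% ± 0.0933 in papilloma and 1.36% ± 0.0674 in the healthy group (SD, n = 5 each). The log2 fold change was -1.86 ± 0.25 (edgeR, adjusted p = 1.55e-05), and -1.22 ± 0.16 among abundant miRNAs (adjusted p = 2.14e-05). miR-26b-5p stood at 419.9, 718.3, 405.1, 337.3 and 322.0 CPM in the same papillomas (log2 fold change -1.73 ± 0.28, edgeR adjusted p = 5.62e-05, and -1.09 ± 0.21 among abundant miRNAs). Papilloma 3 was the highest papilloma for both miR-26 guides.

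miR-101a-3p stood at 804.5, 806.5, 586.4, 778.7 and 560.2 CPM in papilloma 1, 3, 4, 5 and 6, a narrow range below every healthy library (log2 fold change -2.09 ± 0.33, edgeR adjusted p = 5.18e-05, and -1.43 ± 0.28 among abundant miRNAs). miR-101b-3p stood at 817.1, 808.9, 577.2, 835.5 and 559.0 CPM in the same papillomas (log2 fold change -1.37 ± 0.28, edgeR adjusted p = 0.000555, and -0.73 ± 0.23 among abundant miRNAs, adjusted p = 0.0124). In papillomas the 2 miR-101 guides were thus found at nearly equal CPM, while in each healthy library miR-101a-3p was the more abundant.

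The low-count members miR-101c, miR-101a-5p and miR-26b-3p were lower as well. The low-count arms miR-26a-2-3p (log2 fold change -0.57, edgeR adjusted p = 0.277) and miR-26a-1-3p (0.12, adjusted p = 0.885) did not pass. miR-101c averaged 39.5 ± 10 CPM in papilloma and 216 ± 74.6 CPM in healthy skin, and miR-101a-5p 10.8 ± 4.53 and 36.8 ± 9.86 CPM in papilloma and healthy skin (SD, n = 5 each). miR-26b-3p averaged 26.5 ± 10.2 CPM in papilloma and 77.3 ± 23 CPM in healthy skin (edgeR, adjusted p = 0.000755). Papilloma 4 held 5 counts of miR-101a-5p, the fewest of any papilloma.

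In hyperplastic against healthy skin, 0 of the 9 tested members passed, 0 had an unadjusted p under 0.05 in edgeR, and DESeq2 called 0, with 0 at an unadjusted p under 0.05. Of all 850 tested miRNAs 0% were called here in either direction, and 75 had an unadjusted p under 0.05. In CPM no member had its groups apart, as 0.353% of all did in the lower direction. Among abundant miRNAs 0 of 5 members were called and 1 had an unadjusted p under 0.05. The estimates for miR-26a-5p were -0.46 ± 0.24 (edgeR, adjusted p = 0.59) and, among abundant miRNAs, -0.38 ± 0.16 (adjusted p = 0.323). For miR-101a-3p they were -0.18 ± 0.32 (adjusted p = 0.909) and -0.12 ± 0.28 (adjusted p = 0.852).

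The hyperplastic libraries were not alike. miR-26a-5p stood at 10159.7, 10657 and 9123 CPM in hyperplastic 1, 2 and 5 and at 16009 and 15947 CPM in hyperplastic 7 and 8. miR-101a-3p stood at 1993, 1473 and 1743 CPM in the first 3 and at 3945 and 4097 CPM in the other 2, within the healthy range, and miR-101b-3p at 1406, 880.4 and 1232 CPM against 2350.1 and 2299 CPM. miR-26b-5p stood at 787.2, 859.4, 725.7, 1235 and 1667 CPM in hyperplastic 1, 2, 5, 7 and 8, again with the last 2 highest. As a share of mature miRNA reads miR-26a-5p lay closer together, at 1.12%, 1.17%, 0.898%, 1.23% and 1.30% in these libraries. Their TMM factors were 1.10, 1.10, 0.984, 0.767 and 0.815. A lower factor raises the CPM of every miRNA, so part of the gap in CPM, also in the sums that follow, is scaling in hyperplastic 7 and 8. The same 2 libraries had the highest summed level of striated muscle miRNAs of their group, 49894 and 39742.5 CPM, where hyperplastic 1, 2 and 5 had 31725, 18854 and 16448 CPM. They were also the highest of their group for the listed smooth muscle miRNAs (83390.3 and 74322 CPM, against 36784 to 42959 CPM in the other 3), fibroblast miRNAs (309381 and 288833 CPM, against 143697 to 148623 CPM), endothelial miRNAs (37124 and 21536 CPM, against 14828 to 17598 CPM) and leukocyte miRNAs (22818 and 21665 CPM, against 9697 to 14552 CPM). For keratinocyte miRNAs hyperplastic 7 lay inside the range of the other 3, at 212133 CPM, and hyperplastic 8 was the lowest, at 175456 CPM. The part of these cell types in the members' levels was not tested.

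Against hyperplastic skin, which received the same agents, the tumours were lower too. In cSCC 7 members were called lower (20.5% of all tested miRNAs), and 5 of 5 among abundant miRNAs (23.2% of all). The log2 fold changes were -1.85 ± 0.25 for miR-26a-5p (edgeR, adjusted p = 1.59e-06; -1.22 among abundant miRNAs) and -2.91 ± 0.34 for miR-101a-3p (adjusted p = 4.11e-07; -2.27). The higher background was 24.5%, and 27.6% among abundant miRNAs. In papilloma 7 were called lower (17.1% of all, and 21.3% higher), and 4 of 5 among abundant miRNAs (14% of all, and 15.7% higher), with -1.40 ± 0.24 for miR-26a-5p (edgeR, adjusted p = 0.000269; -0.84) and -1.91 ± 0.33 for miR-101a-3p (adjusted p = 0.000269; -1.31). The exception among abundant miRNAs was miR-101b-3p (-0.60 ± 0.23, edgeR adjusted p = 0.0525). In CPM the libraries were apart for 6 members in cSCC (15.6% of all tested miRNAs in that direction) and 5 in papilloma (12.2%), and as a share of reads miR-101b-3p and miR-26b-5p overlapped between papilloma and hyperplastic skin. Without hyperplastic 7 and 8, 4 members were called lower in papilloma and 6 in cSCC, and among abundant miRNAs 2 and 4. Fewer libraries enter those fits, and the share of all miRNAs called in them is not given here.

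The carcinomas differed from the papillomas in the miR-101 members. In cSCC against papilloma 4 members were called lower, all of the miR-101 family, 0 were higher and 5 did not pass. Of all tested miRNAs 4.71% were called lower and 6.82% higher. The 4 are not independent of one another. miR-101a-3p and miR-101a-5p are arms of the same hairpin. Reads of miR-101c cannot be told from shortened miR-101a-3p, and miR-101b-3p differs from miR-101a-3p only at A16G where they align. miR-101b-3p had a log2 fold change of -1.10 ± 0.28 (edgeR, adjusted p = 0.0108; -1.04 ± 0.23 among abundant miRNAs, adjusted p = 0.00269). That of miR-101a-3p was -1.01 ± 0.32 (edgeR, adjusted p = 0.0408; -0.95 ± 0.28 among abundant miRNAs, adjusted p = 0.0144). That of miR-101c was -1.19 ± 0.36 (edgeR, adjusted p = 0.0319) and that of miR-101a-5p -2.12 ± 0.47 (adjusted p = 0.00411). For the first 3 each carcinoma lay below each papilloma in CPM, as for 4.12% of all tested miRNAs in that direction. As a share of mature miRNA reads miR-101c overlapped. Among abundant miRNAs 3 of 5 members were called lower, where 12.3% of all were, and 13% were higher.

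With any single library of the 20 left out, 1 to 3 members were called lower. The call of miR-101a-5p was kept in all 20 of these fits and that of miR-101b-3p in 16, while that of miR-101c was lost in 16 and that of miR-101a-3p in 20. miR-101a-5p had only 2 to 12 counts in cSCC and 5 to 40 in papilloma, and its libraries overlapped in CPM. In the fit of abundant miRNAs the count of members called lower was 3 in all 20. miR-26a-5p had a log2 fold change of -0.45 ± 0.24 (edgeR, adjusted p = 0.293; -0.37 ± 0.16 among abundant miRNAs, adjusted p = 0.0934) and miR-26b-5p one of -0.17 ± 0.27 (adjusted p = 0.784; -0.09 ± 0.21). In CPM both miR-26 guides overlapped between cSCC and papilloma. As a share of mature miRNA reads miR-26a-5p did not overlap, with 0.314% to 0.394% in cSCC and 0.496% to 0.723% in papilloma, and miR-26b-5p did, with 0.0347% to 0.0533% in cSCC and 0.0421% to 0.0812% in papilloma. Scaled to total counts, miR-26a-5p passed (-0.74, edgeR adjusted p = 0.00293). Whether the miR-101 and miR-26 guides differ in this comparison was tested with the ratio within each library.

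Ratios within a library do not depend on the scaling between libraries. The log2 ratio of miR-101a-3p to miR-26a-5p averaged -3.35 ± 0.59 in cSCC, -2.70 ± 0.21 in papilloma, -2.31 ± 0.36 in hyperplastic skin, and -2.55 ± 0.47 in the healthy group (SD, n = 5 each). It was lower by 0.79 in cSCC than in healthy skin (exact permutation test, two-sided, p = 0.0476, adjusted over 16 tests p = 0.19) and lower by 0.64 in cSCC than in papilloma (exact permutation p = 0.0635, adjusted p = 0.19). Neither passed, and the libraries overlapped in both. Without cSCC 6 the differences were -0.99 from healthy skin and -0.84 from papilloma on the log2 scale, and both passed (exact permutation test, adjusted p = 0.0317). For each difference, 9 of the 10 tests that left out a library of its groups did not pass. With 5 libraries a group the smallest p this test allows is 0.00794, and 1 test alone at that p adjusts to 0.127 over 16 tests. A single ratio could thus not pass by itself, however far apart its groups were.

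The proportion of the 2 miR-101 guides also differed between groups before adjustment. The log2 ratio of miR-101b-3p to miR-101a-3p was 0.02, 0.00, -0.02, 0.10 and -0.00 in papilloma 1, 3, 4, 5 and 6, against -0.72, -0.72, -0.43, -0.89 and -0.57 in healthy 2, 3, 4, 5 and 7. These 2 groups did not overlap. The mean was higher by 0.69 in papilloma (exact permutation test, two-sided, p = 0.00794, adjusted p = 0.127) and by 0.65 in cSCC (p = 0.0159, adjusted p = 0.127) than in healthy skin. Without cSCC 6 the difference of cSCC was 0.77 and passed (exact permutation test, adjusted p = 0.0317). In 9 of the 10 tests that left out a cSCC or healthy library it did not pass. Hyperplastic and healthy skin had means of -0.67 ± 0.15 and -0.67 ± 0.17 (SD, n = 5 each). The 2 sequences differ at 1 aligned base, so reads may have been assigned to one or the other in a way that is not known. With all libraries in, none of the 16 ratio tests passed after adjustment, and the papilloma difference, at the smallest p allowed, could not have passed alone.

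**Figure D3:**
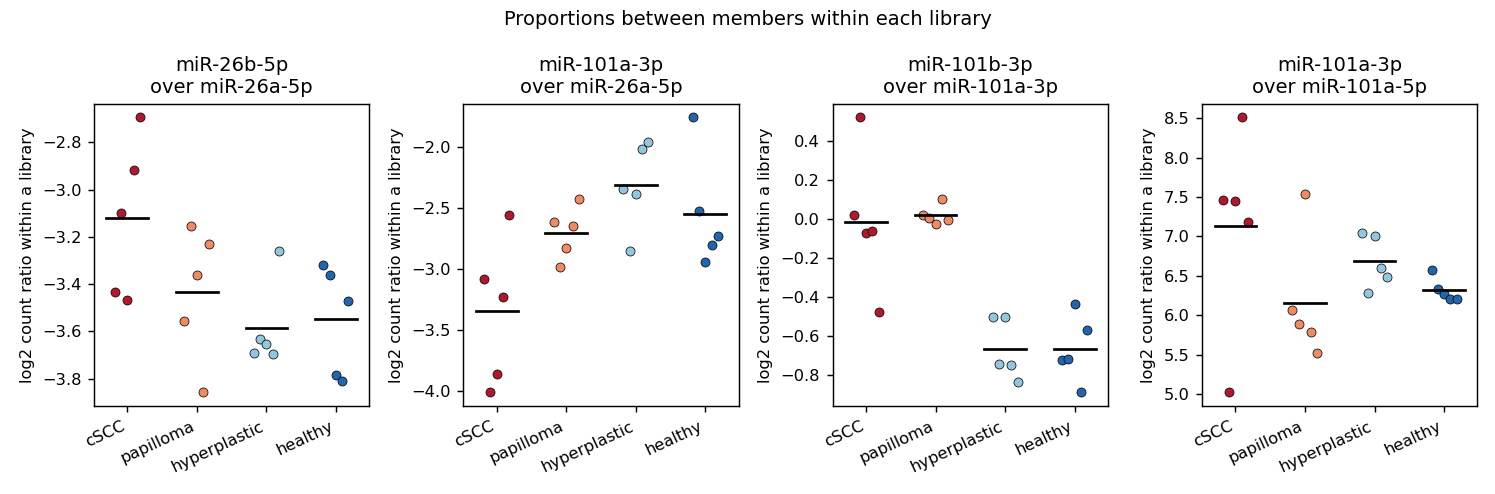
Log2 ratio of the counts of 2 members within each library, for 4 pairs of members, with 1 point per library and a bar at the group mean, grouped as cSCC, papilloma, hyperplastic and healthy skin. The papilloma points for miR-101b-3p over miR-101a-3p sit close to 0, above all healthy points, and the other 3 panels overlap between groups.

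For the other 2 ratios no test passed after adjustment. miR-26b-5p to miR-26a-5p averaged -3.12 ± 0.33 in cSCC, -3.43 ± 0.28 in papilloma, -3.59 ± 0.19 in hyperplastic skin, and -3.55 ± 0.23 in the healthy group on the log2 scale (SD, n = 5 each). The difference of cSCC from healthy skin was 0.43 (exact permutation test, p = 0.0635, adjusted p = 0.19). The 2 arms of the miR-101a hairpin had a log2 ratio of 7.13 ± 1.28 in cSCC, 6.16 ± 0.80 in papilloma, 6.68 ± 0.33 in hyperplastic skin and 6.32 ± 0.15 in healthy skin. The wide spread in the tumours goes with counts of miR-101a-5p of 2 to 12 in cSCC and 5 to 40 in papilloma.

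Of the cell type lists, only those of striated and smooth muscle were lower throughout, in both tumours and under both scalings. The other lists were mixed or changed with the scaling. Against healthy skin, 21.3% of all 850 tested miRNAs were lower and 26.2% higher in cSCC, and 20.7% and 24% in papilloma. Among the 293 abundant miRNAs these shares were 25.9% and 36.5% in cSCC, and 20.5% and 29% in papilloma. The 4 striated muscle miRNAs (miR-1a, miR-133a, miR-133b and miR-206, all 3p arms) summed to 1561 to 3616 CPM in cSCC, 1753 to 9174 CPM in papilloma, 16448 to 49894 CPM in hyperplastic skin and 19319.9 to 77334.5 CPM in healthy skin. In cSCC and in papilloma against healthy skin 4 of 4 were lower, and none was at 0 in any library. The 2 smooth muscle miRNAs summed to 13902 to 24309 CPM in cSCC, 16213 to 26057 CPM in papilloma, 36784 to 83390.3 CPM in hyperplastic skin and 53599 to 110327 CPM in healthy skin, and 2 of 2 were lower in both tumours. Of the 7 fibroblast and mesenchyme miRNAs, 5 were lower in cSCC and 6 in papilloma, with sums of 99910.0 to 209910.0 CPM in cSCC, 71441 to 117075 CPM in papilloma, 143697 to 309381 CPM in hyperplastic skin and 204904 to 392302 CPM in healthy skin. Among abundant miRNAs 3 of 7 were lower and 1 was higher in cSCC, and 4 of 7 were lower in papilloma. The 2 endothelial arms of miR-126 were both lower in each tumour type, but among abundant miRNAs 0 of 2 were lower in cSCC and 1 of 2 in papilloma. They summed to 8811 to 19035 CPM in cSCC, 9862 to 15936 CPM in papilloma, 14828 to 37124 CPM in hyperplastic skin and 23609.9 to 43320.4 CPM in healthy skin.

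The leukocyte miRNAs, 5 of 5 tested, had 1 higher and 1 lower in cSCC and 2 lower in papilloma, with sums of 47632 to 109520.0 CPM in cSCC, 14913 to 60609.7 CPM in papilloma, 9697 to 22818 CPM in hyperplastic skin and 18584 to 35844 CPM in healthy skin. Among abundant miRNAs 2 of 4 were higher and 1 lower in cSCC, and 1 was higher and 0 were lower in papilloma. The leukocyte sums were mostly miR-223-3p, with means of 69582 CPM in cSCC and 18835 CPM in healthy skin. miR-150-5p averaged 1110 and 4914 CPM there. miR-29a-3p was likewise the largest part of the fibroblast sums, and miR-205-5p with miR-203-3p that of the keratinocyte sums. Of the 7 keratinocyte miRNAs 4 were lower in cSCC and 3 in papilloma, and among abundant miRNAs 2 and 0. The part of these cell types in the lower miR-26 and miR-101 levels was not tested.

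**Figure D4:**
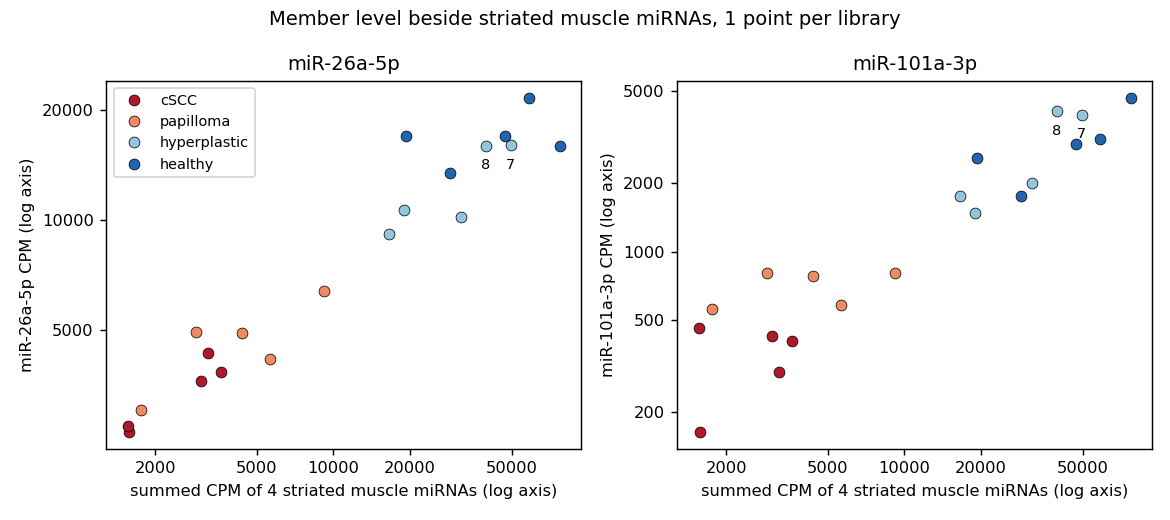
Level of miR-26a-5p (left) and miR-101a-3p (right) against the summed level of 4 striated muscle miRNAs, both in CPM on log axes, with 1 point per library in cSCC, papilloma, hyperplastic and healthy skin. Hyperplastic 7 and 8, marked by number, lie with the healthy libraries, and tumour libraries lie at low values on both axes.

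The miRNAs whose log2 CPM was most like that of the members over the 20 libraries were drawn from 288 other abundant miRNAs. For miR-26a-5p these were miR-30b-5p, miR-30c-5p, miR-10b-5p, miR-30d-5p and let-7g-5p, with Pearson's r of 0.975, 0.973, 0.972, 0.968 and 0.964 and Spearman's rho of 0.953, 0.974, 0.956, 0.962 and 0.923. For miR-101a-3p they were the muscle miRNA miR-133a-3p, miR-378-3p, miR-99a-5p, miR-27b-3p and miR-199b-5p, with r of 0.970, 0.970, 0.967, 0.965 and 0.964 and rho of 0.967, 0.965, 0.965, 0.950 and 0.961. The libraries fall into tumour and other skin, share 1 scaling and differ in depth between these groups, so these values describe mainly that split. Among the members, miR-101a-3p had r = 0.985 with miR-101b-3p, and miR-26a-5p r = 0.958 with miR-26b-5p and 0.943 with miR-101a-3p.

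Other miRNAs reported to act on Ezh2 did not all go the same way. Of 15 listed (8 let-7 guides with miR-98-5p, and 6 others), 14 were tested. In cSCC against healthy skin 10 were lower, 1 was higher and 3 did not pass, and in papilloma 11, 1 and 2. Of all 850 tested miRNAs, 21.3% were lower and 26.2% higher in cSCC, and 20.7% and 24% in papilloma. Among abundant miRNAs, 7 of 13 were lower and 2 higher in cSCC, and 5 lower and 1 higher in papilloma. Of all 293 abundant miRNAs, 25.9% were lower and 36.5% higher in cSCC, and 20.5% and 29% in papilloma. The median log2 fold change of the 14 was -1.21 in cSCC and -1.04 in papilloma. Most of the lower ones were let-7 guides, which also restrain Hmga2 and Ras: 8 of 9 in cSCC and 9 of 9 in papilloma, and 6 and 4 among abundant miRNAs.

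Outside let-7, 4 had at least 50 CPM on average. miR-30d-5p averaged 1112 ± 47.6 CPM in cSCC, 1686 ± 468 CPM in papilloma and 3335 ± 520 CPM in the healthy group (SD, n = 5 each). It was lower in both tumours, with a log2 fold change of -1.58 ± 0.22 in cSCC (edgeR, adjusted p = 2.5e-06; -0.86 among abundant miRNAs) and -0.98 ± 0.22 in papilloma (adjusted p = 0.000959; -0.35).

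miR-138-5p went the other way. It stood at 6635, 4197, 12386, 1482 and 1997 CPM in cSCC 1, 2, 3, 4 and 6 and 9158, 6020, 4516, 3628 and 1314 CPM in papilloma 1, 3, 4, 5 and 6, against 1662 to 2519 CPM in the healthy libraries. The tumour libraries spread widely and overlapped the healthy ones. Its log2 fold change was 1.32 ± 0.45 in cSCC (edgeR, adjusted p = 0.0183; 2.05 among abundant miRNAs) and 1.21 ± 0.45 in papilloma (adjusted p = 0.0329; 1.77). Without cSCC 3 the first was 0.74 (adjusted p = 0.151), without healthy 4 it was 1.19 (adjusted p = 0.0533), and the second passed in 1 of 10 fits that left out a library of its groups. It was 0.76 (adjusted p = 0.175) without papilloma 1. These fits also redid the filter and scaling.

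For miR-25-3p and miR-214-3p the direction depended on the scaling. miR-25-3p had a log2 fold change of -0.70 ± 0.21 in cSCC (edgeR, adjusted p = 0.00813) and 0.02 among abundant miRNAs (adjusted p = 0.917), and -0.52 ± 0.21 in papilloma (adjusted p = 0.0466) and 0.15 among abundant miRNAs. miR-214-3p, which is also one of the listed fibroblast miRNAs, had -0.08 ± 0.27 in cSCC (edgeR, adjusted p = 0.812) and 0.61 among abundant miRNAs (adjusted p = 0.0222), and -0.31 ± 0.27 in papilloma and 0.35 among abundant miRNAs. The members' signs against healthy skin, by contrast, were negative under both scalings for the 5 that enter both.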

How the data were processed

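Small RNA from 20 mouse skin biopsies was extracted with a Qiagen miRNeasy kit, made into libraries with a NEBNext set, size-selected on gels and sequenced on the SOLiD system, per the labels' protocols. The authors deposited raw, whole-number read counts for each small RNA feature, with genome build mm9 per the submitters' processing notes. The sources used here name no aligner, no counter and no rule for reads with several matches. No feature has a total under 21 counts.

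Columns were matched to samples by title. Counts of 1137 mature miRNAs were filtered with filterByExpr by group (850 left), scaled by TMM and fitted with edgeR 4.0.16 (R 4.3.3, limma 3.58.1) in 1 quasi-likelihood model with a term per group. P-values are two-sided and Benjamini-Hochberg adjusted over all miRNAs tested, with a threshold of 0.05. SEs derive from the F statistic. A second fit used the 293 miRNAs with a mean of at least 50 CPM. Within-library ratios had 0.5 added to each count. Alternatives were DESeq2 1.42.0 and its size factors, total counts, no filter, the replicate number as a block, only the groups compared, 1 added to ratio counts, and each library left out. Each edgeR fit with a library left out redid the filter and the scaling. Leaving out hyperplastic 7 and 8, leaving out single libraries among abundant miRNAs, and the alternatives for the 4 other Ezh2-related miRNAs were added after seeing the data. The fit was tested on simulated data. The members and lists were chosen with earlier results of these data known. All members are named, with the other Ezh2-related miRNAs of at least 50 CPM outside let-7 and the 5 miRNAs most like each main guide.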

Additional observations from a re-analysis of the deposited data

Results flagged for a closer look

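In each group of 5 libraries, the gap of the highest or lowest library to its neighbour was set against the group's range, and 5 of 52 groups of values stood beyond a share of 0.71, where chance gives about 1 in 20. miR-101a-5p in papilloma 4 was far below the other papillomas, at 2.87 CPM against 11.8 to 13.9 CPM. In the same library the log2 ratio of miR-101a-3p to miR-101a-5p was 7.54, against 5.52 to 6.07. miR-26b-5p was far above the other papillomas in papilloma 3, at 718.3 CPM against 322.0 to 419.9 CPM. It was far below the other healthy libraries in healthy 4, at 974.2 CPM against 1533 to 1651 CPM. The log2 ratio of miR-26b-5p to miR-26a-5p in hyperplastic 8 was -3.26, against -3.70 to -3.63 in the other hyperplastic libraries.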

How the results depend on the processing

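The counts of members called lower against healthy skin (7 in cSCC and 7 in papilloma, and 5 and 5 among abundant miRNAs) were 7 to 8, 7, 5 and 5 over the fits that each left out 1 library. Those fits redid the filter and scaling, and some main estimates lay outside their range. miR-26b-5p in papilloma against healthy skin was -1.73, and -2.09 to -1.75 in those fits. What a library left out did alone was not tested. In papilloma against hyperplastic skin the count of 7 of 9 was 4 with the replicate number as a block and 4 without hyperplastic 7 and 8, an alternative chosen after seeing the data; both lost the calls of miR-101b-3p, miR-26b-3p and miR-101a-5p. Among abundant miRNAs, where only 5 members are tested, it was 4, with 1 call lost. Over the single-library fits it was 5 to 7, and among abundant miRNAs 3 to 5, and 2 without hyperplastic 7 and 8. In cSCC against papilloma the count of 4 was 2 with no low-count filter, 2 with the replicate block, and 1 to 3 with 1 library left out. There miR-101a-3p had an adjusted p of 0.0536 with DESeq2 size factors in edgeR. Same-numbered samples did not deviate together over the tested miRNAs (2 of 17 pairs had a correlation over 0.1, range -0.14 to 0.18). Whether they share a mouse or a batch is not stated, and these correlations cannot settle it. With the replicate block the log2 ratio of miR-101b-3p to miR-101a-3p was higher by 0.77 in papilloma and 0.71 in cSCC than in healthy skin (least-squares model over the 20 libraries with group and number terms, adjusted p = 0.015 for both, against exact permutation p-values adjusted to 0.127 without the block). The kind of test changed together with the block, and no least-squares model without the block was run. What the block did alone was therefore not tested.

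Some estimates changed sign, and 3 ratio differences of cSCC passed without cSCC 6, though in no other test with 1 library left out. miR-26b-3p in cSCC against papilloma was -0.13 with total counts. With 1 library left out, miR-101a-3p in hyperplastic against healthy skin ran from -0.49 to 0.00037, and miR-26b-5p in cSCC against papilloma from -0.18 to 0.070. The ratio of miR-101a-3p to miR-26a-5p ran from -0.99 to -0.60 in cSCC against healthy skin, from -0.84 to -0.48 in cSCC against papilloma and from -0.25 to 0.047 in papilloma against healthy skin. That of miR-101b-3p to miR-101a-3p ran from 0.52 to 0.77 in cSCC against healthy skin, from -0.17 to 0.083 in cSCC against papilloma and from -0.055 to 0.059 in hyperplastic against healthy skin. That of miR-26b-5p to miR-26a-5p in hyperplastic against healthy skin ran from -0.12 to 0.022, and that of the miR-101a arms in papilloma against healthy skin from -0.50 to 0.00041. miR-214-3p in cSCC against healthy skin was 0.24 with total counts, 0.61 among abundant miRNAs, 0.0069 with the replicate block and -0.36 to 0.11 with 1 library left out. In papilloma it was 0.33 with total counts and 0.35 among abundant miRNAs. miR-25-3p, which had been called lower in both tumours, was 0.017 in cSCC among abundant miRNAs, and in papilloma 0.14 with total counts and 0.15 among abundant miRNAs. The cause of these changes was not tested. Low counts limit the arms miR-101a-5p, miR-26a-1-3p, miR-26a-2-3p and miR-101b-5p in the tumours.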
